A study of Mus musculus with 24 samples.

Results

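The m6A peaks described here lie in exons outside the annotated untranslated regions (UTRs) of mouse spinal cord RNA. They are the rows of 4 deposited peak lists whose annotation begins with "Exon", with a fold enrichment (the ratio of m6A-enriched over input signal) of at least 2 and a base 10 logarithm of p of at most -5. These exon peaks numbered 6473 in the sham list, 5170 in the list of day 3, 5873 in that of day 7 and 5006 in that of day 14, or 22522 of all 145655 rows. They were 29.7, 23.4, 28 and 22.8% of the rows that passed the same thresholds. The study took the spinal cord of mice after spared nerve injury, in which the common peroneal and tibial branches of the sciatic nerve are tied and cut, and after a sham operation that only exposed the nerve. Injured mice were sampled at 3, 7 and 14 days and sham mice are labelled day 3 only, so day and injury cannot be told apart for the later days. Each of the 4 groups had 3 input libraries and 3 libraries enriched with an m6A antibody, 24 samples in all, but only 1 peak list per group. A difference between peak lists therefore has no replicate error and was not tested. The labels do not give strain, sex, age or the segment of the cord, or say whether an animal was used alone or pooled.

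N6-methyladenosine (m6A) is the most common internal modification of messenger RNA. A methyltransferase complex built around METTL3 and METTL14 writes it, mostly in the consensus called DRACH, FTO and ALKBH5 can remove it, and proteins such as the YTH family read it and alter splicing, translation or decay. In coding transcripts the mark is known to crowd near the stop codon and in long internal exons. Exons of long noncoding RNAs can carry it too, and as these RNAs have few UTR annotations, their peaks are nearly all called exonic.

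The sequences below are shown because they lie whole inside exon peaks of all 4 lists and on the strand of the host RNA. They come from RefSeq (GRCm38.p6), whose miRNA coordinates equalled those of the deposited expression table for 594 of 599 miRNA genes (99.2%). The first is the hairpin of Mir9-2 at chr13:83738814-83738885 on the plus strand, inside an exon of the long noncoding RNA C130071C03Rik, with both mature arms in capitals. Its mature products follow with the seed (bases 2 to 8) in capitals. The hairpin of Mir1896, at chr13:21445160-21445240 on the plus strand in an exon of 4930470G03Rik, has its mature arm in capitals.
Mir9-2: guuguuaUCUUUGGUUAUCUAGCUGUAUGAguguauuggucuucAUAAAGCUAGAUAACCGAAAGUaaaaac
mmu-miR-9-5p: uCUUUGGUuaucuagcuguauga
mmu-miR-9-3p: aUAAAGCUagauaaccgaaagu
Mir1896: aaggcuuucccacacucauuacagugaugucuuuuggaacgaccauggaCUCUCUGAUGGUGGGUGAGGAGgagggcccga

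The peak over Mir9-2, a miRNA gene of the nervous system, had a fold enrichment of 17.1 in sham, 9.75 on day 3, 9.66 on day 7 and 8.48 on day 14. The sham value was the highest and the 3 injured lists lay close together. C130071C03Rik itself had an RNA level of 4.15 ± 0.488 FPKM in sham (SD, n = 3) and 3.7 ± 0.176, 4.0 ± 0.441 and 3.91 ± 0.223 FPKM on days 3, 7 and 14 (SD, n = 3 each). The peak over Mir1896 was also highest in sham, at 14.6, against 6.56, 9.57 and 7.5 on the 3 injured days. Another hairpin, Mir1895 in Gm26691, lay whole inside weak peaks of 2.68, 2.11, 3.07 and 2.23. Mir134, in the long noncoding RNA Mirg of the imprinted Dlk1-Dio3 locus, lay whole inside exon peaks of day 7 (3.76) and day 14 (3.52) and of neither other list. Fragments of a host transcript and of a miRNA precursor cannot be told apart in these tables.

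Windows of 300 bases around RefSeq gene starts were searched on both strands for GGACT, a common form of the m6A consensus, and for 2 relatives that differ in the last base, namely GGACA and, with a last C, GGACC. The 3 motifs cannot overlap each other. Of the windows, 30 lay whole inside an exon peak of some list and 7 inside one of all 4 lists. At least one of the 3 motifs stood on the transcribed strand in 86.7% of the 30 and on the other strand in 63.3%, against 60.2 and 60.4% of all 32807 windows. The windows below are those of the 7 that no peak of the opposite strand overlapped, with motifs in capitals. A match is a description of the letters and not a mapped site.
Gm36371: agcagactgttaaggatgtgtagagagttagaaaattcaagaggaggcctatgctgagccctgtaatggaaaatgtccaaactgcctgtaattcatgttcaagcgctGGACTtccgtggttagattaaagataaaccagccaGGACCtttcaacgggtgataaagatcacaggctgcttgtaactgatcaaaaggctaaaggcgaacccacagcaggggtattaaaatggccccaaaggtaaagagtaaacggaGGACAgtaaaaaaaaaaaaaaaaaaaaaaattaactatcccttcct
Gm26666: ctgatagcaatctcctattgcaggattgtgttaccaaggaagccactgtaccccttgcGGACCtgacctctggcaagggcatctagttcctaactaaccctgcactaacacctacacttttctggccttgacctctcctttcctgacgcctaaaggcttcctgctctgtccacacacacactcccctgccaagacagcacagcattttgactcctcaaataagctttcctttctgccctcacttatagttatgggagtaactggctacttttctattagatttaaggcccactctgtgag
5031425E22Rik: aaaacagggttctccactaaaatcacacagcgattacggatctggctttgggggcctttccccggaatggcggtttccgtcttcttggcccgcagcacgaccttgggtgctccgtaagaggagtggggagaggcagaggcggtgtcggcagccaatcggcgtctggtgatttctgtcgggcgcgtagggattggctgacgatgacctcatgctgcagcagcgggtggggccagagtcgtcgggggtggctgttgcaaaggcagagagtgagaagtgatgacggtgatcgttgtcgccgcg

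The Gm36371 window (chr7:6156969-6157268, plus strand) held all 3 motifs, and its peak was nearly level at 8.13 in sham, 8.21 on day 3, 6.61 on day 7 and 7.76 on day 14. The Gm26666 window (chr6:145049861-145050160, plus strand) held GGACC, and its peak was 3.77 in sham against 34.0, 17.8 and 29.0 on the injured days. Gm26666 had a mean of 0.485 FPKM, below the 0.5 FPKM asked for in the RNA test, so these ratios rest on a low input signal. The 5031425E22Rik window (chr5:23433287-23433586, minus strand) held none of the 3 motifs and had peaks of 25.6, 22.1, 22.0 and 15.4. Exon peaks thus lay over windows with and without these letters. The Gm26666 window lies opposite the coding gene Bcat1, which had no peak there. The C230034O21Rik window, in peaks of 24.8, 5.86, 7.86 and 7.4, lies opposite Fat4, which did have peaks there. C230034O21Rik also had a low mean, of 0.437 FPKM. Between 4.93 and 5.01% of exon peaks per list had such a counterpart on the other strand, and whether the authors' counting used strand is not given in the sources used here.

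The difference in number between lists lay in protein-coding genes. They held 4199 exon peaks in sham, 2821 on day 3, 3598 on day 7 and 2781 on day 14, while long noncoding RNAs held 1117, 1157, 1112 and 1110. Pseudogenes held 235 to 260 per list, and 853 to 904 peaks were in genes with no RefSeq entry of that symbol. Coding exon peaks were mostly internal (56.5 to 63.8% per list were in neither the first nor the last exon), whereas 41.5 to 45% of those in long noncoding RNAs were in the last exon. Long noncoding exons had the higher median fold enrichment in each list, with 7.82, 6.77, 7.33 and 7.03 in sham and on days 3, 7 and 14 against 5.27, 4.45, 4.73 and 4.53 in coding exons. Peaks called in UTRs are left out here, which removes coding peaks of first and last exons but few of long noncoding RNAs. The contrasts of position and fold between these classes are therefore partly set by the annotation.

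**Figure D1:**
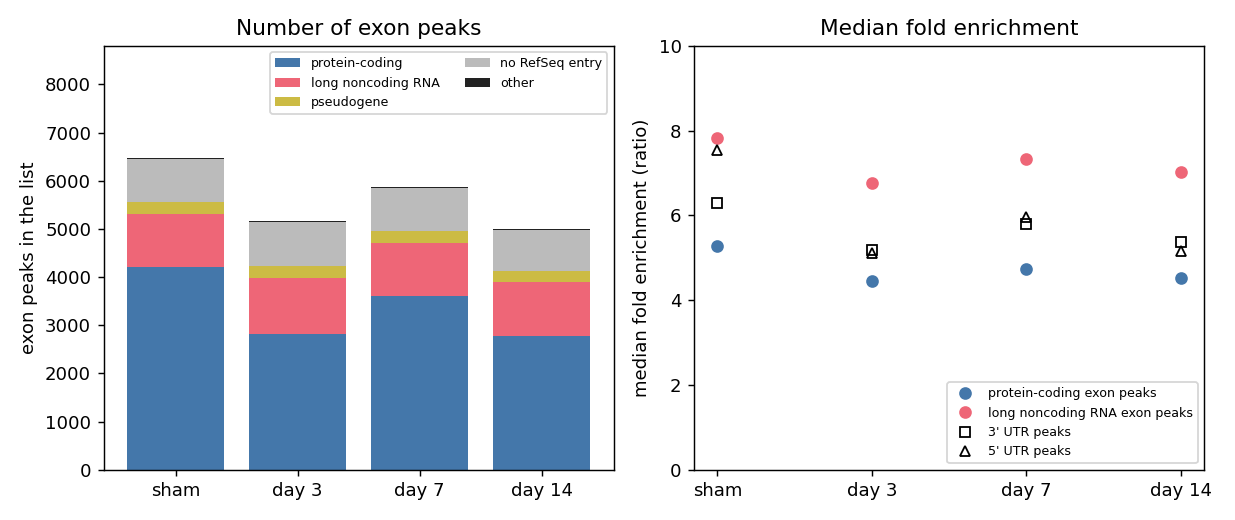
Left, number of exon peaks per list, stacked by the RefSeq class of the host gene. Right, median fold enrichment of exon peaks in protein-coding genes and long noncoding RNAs and of UTR peaks. Coding exon peaks number 4199 in sham and 2781 on day 14. Of the classes plotted at right, long noncoding exon peaks have the highest median in every list. Pseudogene exon peaks, not plotted there, have medians of 8.69, 6.88, 7.83 and 7.15 in sham and on days 3, 7 and 14.

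The median fold enrichment of all exon peaks was 6.0, 5.25, 5.54 and 5.34 in the 4 lists, against 6.29, 5.19, 5.8 and 5.37 for 3′ UTR peaks and 7.55, 5.12, 5.97 and 5.16 for 5′ UTR peaks. The difference in median log2 fold enrichment, exon minus 3′ UTR, was -0.068, 0.017, -0.066 and -0.007 in sham and on days 3, 7 and 14 (mean -0.031 ± 0.043, SD over 4 lists). Against the 5′ UTR it was -0.332, 0.036, -0.108 and 0.049 (mean -0.088 ± 0.177, SD over 4 lists), with the sham list the farthest from 0. Fold enrichment is also a threshold of the choice of peaks, and 4 lists cannot reach a p of 0.05 in an exact permutation test, so these differences are a description. The sign of both means turned when every row was used without thresholds, to 0.14 and 0.049. At the thresholds, fold enrichment was 2.0 just inside and 1.99 just outside in each list.

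Exon peaks lay in 6077 genes, 2619 of them with one in all 4 lists. No UTR peak passed in any list for 2727 of these genes (44.9%), which included 1011 of 1020 long noncoding RNAs but only 496 of 3790 coding genes (13.1%). Long noncoding RNAs have few UTR annotations, so this contrast is largely set by the annotation. Of 15564 genes with a mean of at least 0.5 FPKM over the 12 input libraries, 27.4% had an exon peak in some list and 12.4% in all 4. The share with one in some list was 33.1% of genes with 0.5 to 1 FPKM, 32.7% from 1 to 5, 23.6% from 5 to 20, 15.8% from 20 to 100 and 11.1% above 100. UTR peaks went the other way at the low end, at 40.1% from 0.5 to 1 FPKM and 82.3% from 5 to 20.

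The gene lists differed widely around that background of 27.4 and 12.4%. Clustered protocadherins, neuronal adhesion molecules that each have a very long first exon, had exon peaks in 50 of 53 tested members (94.3%), with 30 in all 4 lists. Long noncoding RNAs followed with 22 of 24 and 19 in all 4. Chromatin regulators had 46 of 52 and 38 in all 4, and synaptic scaffold and cytoskeletal genes 31 of 43 and 22. At the other end, cytosolic ribosomal proteins had them in 6 of 90, the astrocyte list in 1 of 17, and genes of axon injury and regeneration in 4 of 28. The microglial and inflammatory list, with 7 of 26 and 3 in all 4 lists (26.9 and 11.5%), was near both background shares. The Hox genes, with 8 of 27 (29.6%), were near the first, but 1 of 27 (3.7%) had an exon peak in all 4 lists. Of the 90 ribosomal genes, 57 had no UTR peak either, whereas 16 of the 17 astrocyte genes had one. These are counts of annotated genes, and exon length, RNA level and UTR annotation were not matched. Of the 24 long noncoding RNAs, 2 had a UTR peak in some list, against 70.3% of all tested genes. Nearly all peaks of these RNAs count as exonic by annotation, so their share is not comparable with that of coding genes. The ribosomal and astrocyte lists had median levels of 53.3 and 31.5 FPKM.

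**Figure D2:**
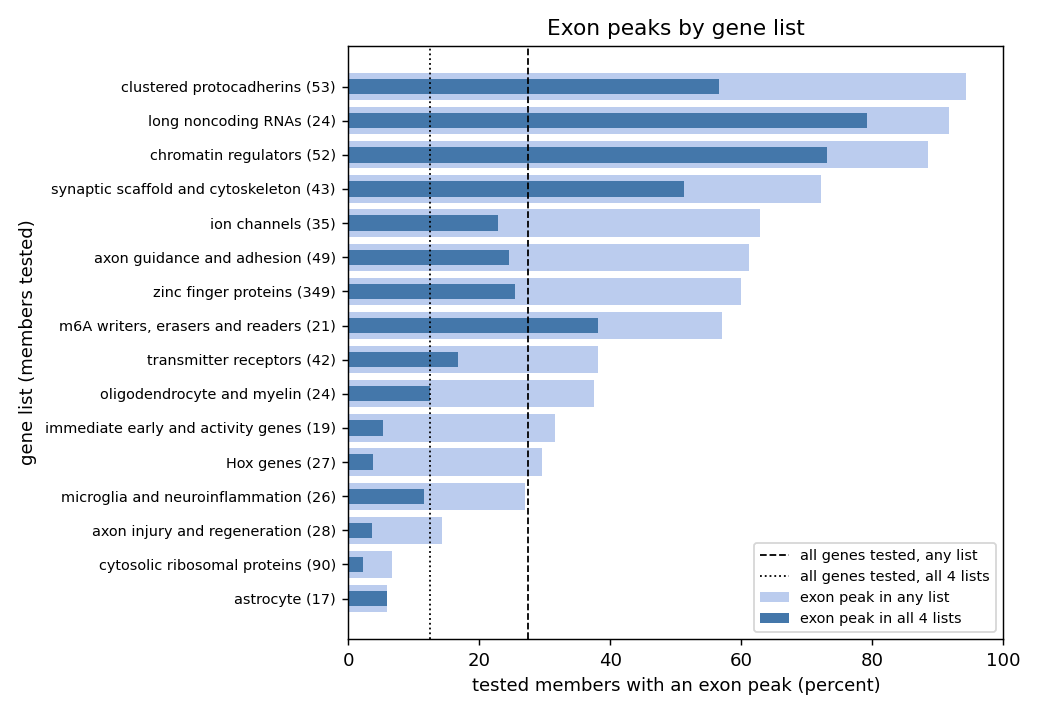
Percent of the tested members of each gene list with an exon peak in any list (pale bars) and in all 4 lists (dark bars); dashed and dotted lines mark the 27.4 and 12.4% of all tested genes. Protocadherins, long noncoding RNAs and chromatin regulators reach 88.5 to 94.3%, and ribosomal proteins and the astrocyte list 5.88 to 6.67%.

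Among long noncoding RNAs, Meg3, an abundant maternally expressed RNA of the imprinted Dlk1-Dio3 locus, had 7, 6, 7 and 6 exon peaks in sham and on days 3, 7 and 14. Its strongest, in the last exon at chr12:109571096-109571726, was at 18.8, 10.5, 11.3 and 11.2. A second, at chr12:109549752-109559157, was at 6.2, 7.52, 6.45 and 7.52, so peaks of the same RNA did not share 1 order of lists. Neat1, the scaffold RNA of nuclear paraspeckles, had 6 rows in all 4 lists, which overlap in pairs and mark 3 places. The strongest of these, at chr19:5843199-5844299, was at 11.2, 6.45, 7.75 and 7.53. Its place at chr19:5845208-5845476 was lowest in sham, with 5.26 against 7.11, 6.74 and 8.82. Mirg, from the same locus as Meg3, had 1 strong site at chr12:109749281-109749460 with 72.0, 33.6, 27.2 and 72.3, where sham and day 14 were alike and days 3 and 7 lower.

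The m6A machinery carried exon peaks on its own transcripts in 12 of 21 tested genes, 8 of them in all 4 lists. Zc3h13, a subunit that holds the writer complex in the nucleus, had 3 sites in all 4 lists, the strongest at chr14:75324541-75329727 with 20.1, 14.5, 16.9 and 21.3. Prrc2a, a reader, had its strongest site at chr17:35156248-35156876 with 18.1, 15.6, 14.8 and 11.3. The writer subunits Rbm15 and Virma had strongest exon peaks of 15.0, 8.45, 11.4 and 9.61, and of 6.81, 6.57, 5.07 and 5.72. The strongest exon peak of Ythdf1, a reader, was at 5.54, 4.81, 4.55 and 4.88 in the 4 lists, with no 1 site shared by all of them. Among the erasers, Fto had 1 exon peak in each list and Alkbh5 had 1 in sham alone. Both genes also had a UTR peak in some list.

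Genes of excitability and the synapse showed exon peaks in 22 of 35 ion channels and 16 of 42 transmitter receptors. Grin1, the obligate NMDA receptor subunit, had a site at chr2:25312461-25312581 with 43.9 in sham, 27.0 on day 3, 13.3 on day 7 and 12.5 on day 14. Its RNA was at 29.4 ± 9.35 FPKM in sham and 36.7 ± 0.354 FPKM on day 14 (SD, n = 3 each), with sham library 3 at 18.6. Unc13a, which primes synaptic vesicles, had strongest exon peaks of 32.8, 22.6, 20.1 and 25.4, with no 1 site shared by all 4 lists. Cacna1b, the pore of the N-type calcium channel, was at 10.8, 6.26, 9.23 and 7.84. Hcn2, a pacemaker channel, was lowest in sham at 4.0, against 5.01, 4.37 and 5.48. Grin1, Unc13a and Cacna1b thus had their highest value in sham, as the median of exon peaks did. Members were named by their highest fold in any list, so they do not stand for the whole gene lists. The strongest exon peak of Grm2, another receptor, was lowest in sham at 3.25, against 5.86, 12.7 and 10.3, at a mean of 0.585 FPKM.

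Chromatin regulators had many peaks per gene. Kmt2d, a histone H3 lysine 4 methyltransferase, had 6, 7, 8 and 7 exon peaks. Its relative Kmt2b had a site at chr7:30574615-30575424 with 18.2, 6.89, 8.76 and 7.96. The genes with most exon peaks in all were Ahnak, a giant scaffold protein, with 14, 10, 13 and 7, and Pclo, the presynaptic scaffold Piccolo, with 11, 8, 12 and 7. Fat1, a giant cadherin, had 4 sites in all 4 lists, of which the strongest at chr8:44950591-44951191 was at 17.3, 5.67, 6.71 and 5.92.

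The strongest exon peaks stood far above the medians. Mag, the myelin-associated glycoprotein of oligodendrocytes, had a peak at chr7:30908767-30908947 with 156 in sham, 184 on day 3, 63.4 on day 7 and 250 on day 14, and no UTR peak in any list. Its RNA was abundant, at 167 ± 64.4 FPKM in sham and 189 ± 2.47, 177 ± 59.9 and 187 ± 3.15 FPKM on days 3, 7 and 14 (SD, n = 3 each). Fbl, fibrillarin of the nucleolus, was at 85.4, 165, 148 and 66.4. Auts2, a neurodevelopmental gene, was steadier at 34.8, 25.8, 25.4 and 29.9. Single lists also held extreme peaks in Rrbp1, a ribosome-binding protein of the endoplasmic reticulum (209 in sham), and Cnnm3, of a family linked to magnesium transport (182 in sham).

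Other extremes lay in genes with near-identical copies, where reads could be split between copies and the values are uncertain. They include Pabpc1l2a-ps (350 on day 7), Zxda (299 on day 14), Fam205a2 (201 on day 14) and Rpl21 (108 on day 14). The highest value of all was in Gm26810, with 441, 271, 296 and 160 at a mean of 0.0414 FPKM, a gene named after its values were seen because the naming rule leaves out predicted names. The deposited gene name column gives Capns1 for that row. The column differed from the gene whose exon held the peak in 18.3 to 20.5% of exon peaks per list.

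Most sham exon peaks overlapped some row after injury, but not always one called exonic. An overlap was at least 1 base of the whole spans on the same strand, with introns between the blocks of a peak included. By this measure, 64.7% met an exon peak of day 3, 12.2% a 3′ UTR peak and 6.5% a 5′ UTR peak. A further 12.7% met a row below the thresholds and 3.85% no row. Day 7 gave 70.9, 8.31, 3.75, 9.86 and 7.14%, and day 14 gave 64.8, 12.5, 6.36, 12.9 and 3.48%. In the other direction, 73.2% of day 3 exon peaks met a sham exon peak but only 1.22 and 1.1% a sham 3′ or 5′ UTR peak. The change of class was a matter of coding genes. On days 3, 7 and 14, 28.2, 18.1 and 28.4% of their sham exon peaks overlapped UTR peaks and no exon peak. In long noncoding RNAs, which have few UTR annotations, 0.269, 0.179 and 0.358% did. Exon peaks were also longer in those lists, with a median exonic length of 360 bases in sham, 510 on day 3, 419 on day 7 and 500 on day 14. The part of peak length in the change of class was not tested.

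**Figure D3:**
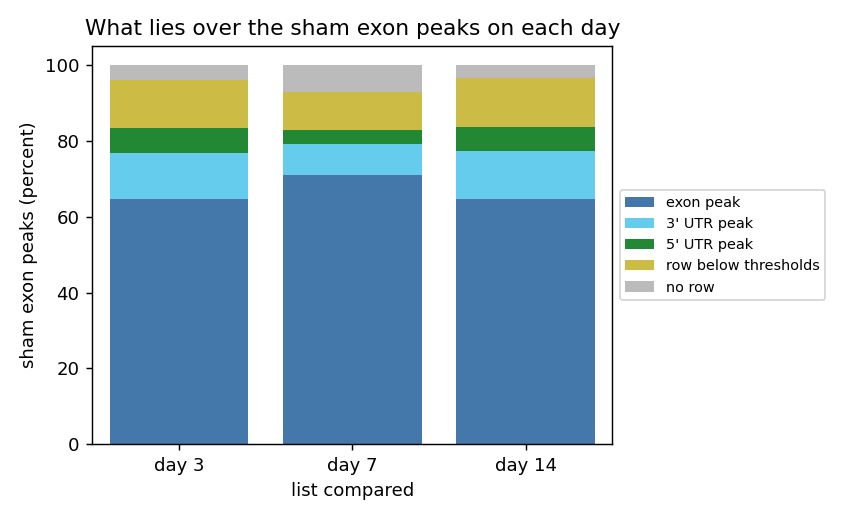
What overlapped the 6473 sham exon peaks by at least 1 base of the whole span, introns included, in the list of each injured day, as a percent of those peaks. Exon peaks overlap 64.7, 70.9 and 64.8% and rows of any kind all but 3.85, 7.14 and 3.48%.

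Required to share at least 50% of both spans, 38.8% of sham exon peaks matched one of day 3, 48.0% one of day 7 and 39.9% one of day 14. Days 3 and 14 matched each other more often, for 64.5% of day 3 and 66.5% of day 14 peaks. Sham and day 7 are the groups whose input library 3 stood apart from the other libraries, as described below. The part of those libraries in the differences between lists was not tested. With each threshold on overlap the order was kept, and at 80% the sham shares were 21.4, 29.0 and 22.9%. Exon peaks with no overlapping row of any strength in sham numbered 777 on day 3 (15.0%), 713 on day 7 (12.1%) and 666 on day 14 (13.3%), with median fold enrichments of 3.52, 3.58 and 3.43. In the other direction, the sham exon peaks with no row were 249 on day 3 (3.85%), 462 on day 7 (7.14%) and 225 on day 14 (3.48%). The sham list held the fewest rows of any strength, 32669 against 40195, 34136 and 38655 on days 3, 7 and 14. There were 51 sham exon peaks (0.788%) with no row on any injured day, which asks for absence from every injured list.

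Those 51 included peaks in Kif7, a kinesin of Hedgehog signalling (9.38), Nrxn3, a presynaptic adhesion protein (5.06, at chr12:88795431-88795521), and Pdcd11, a ribosome assembly factor (4.17). Among peaks with no sham row, the strongest named ones outside families of near-identical copies were 2 in the last exon of Cyb5r4, a cytochrome b5 reductase (42.2 and 29.3 on day 3), and 1 in Ccdc177 (45.1 on day 7). The primary transcript Mir124a-1hg, host of a neuronal miRNA, had one of 19.7 on day 7.

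At 1690 sites in 1501 genes, an exon peak was present in all 4 lists. Each sham row counts as a site, so rows that overlap each other are counted separately. The median log2 difference from sham was -0.342 on day 3, -0.189 on day 7 and -0.253 on day 14, and the value was lower than in sham at 71.7, 63.1 and 64.9% of sites. All peaks of all classes were shifted by a median of -0.289, -0.143 and -0.258, so relative to that the sites differed by -0.053, -0.046 and 0.006. Across the sites, the difference in fold enrichment and the host's RNA log2 change had a Spearman rho of -0.186, -0.147 and -0.198 over 1326 sites. Both share the input libraries and the sham group, so this is a description only.

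The largest differences ran in both directions. Ylpm1, a nuclear protein, was at 2.25 in sham and 6.4, 6.8 and 7.22 on the injured days. Pikfyve, the kinase that makes phosphatidylinositol 3,5-bisphosphate, was at 9.93 in sham, 21.1 on day 3, 33.8 on day 7 and 44.8 on day 14. Both were higher in all 3 injured lists. Epb41l1, a membrane skeleton protein of neurons, was at 4.42, 11.9, 3.17 and 13.2 and Nfatc2, a calcineurin-dependent transcription factor, at 3.31, 10.3, 4.29 and 8.92, high on days 3 and 14 but near sham on day 7.

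In the other direction, Eprs, the glutamyl-prolyl-tRNA synthetase, was at 14.2 in sham and 2.06, 5.64 and 2.57 on days 3, 7 and 14. Wdr81, a protein of endosome traffic, was at 35.0 against 6.4, 8.33 and 7.53, and Gli1, the Hedgehog transcription factor, at 12 against 2.49, 3.04 and 5.24. Pcdha11 was at 23.4, 15.4, 4.83 and 4.58 and Dchs1, a giant cadherin, at 20, 7.29, 7.25 and 4.61. In each of these the sham list was the highest of the 4. These sites were picked as the extremes of 1690, so their size is a description.

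**Figure D4:**
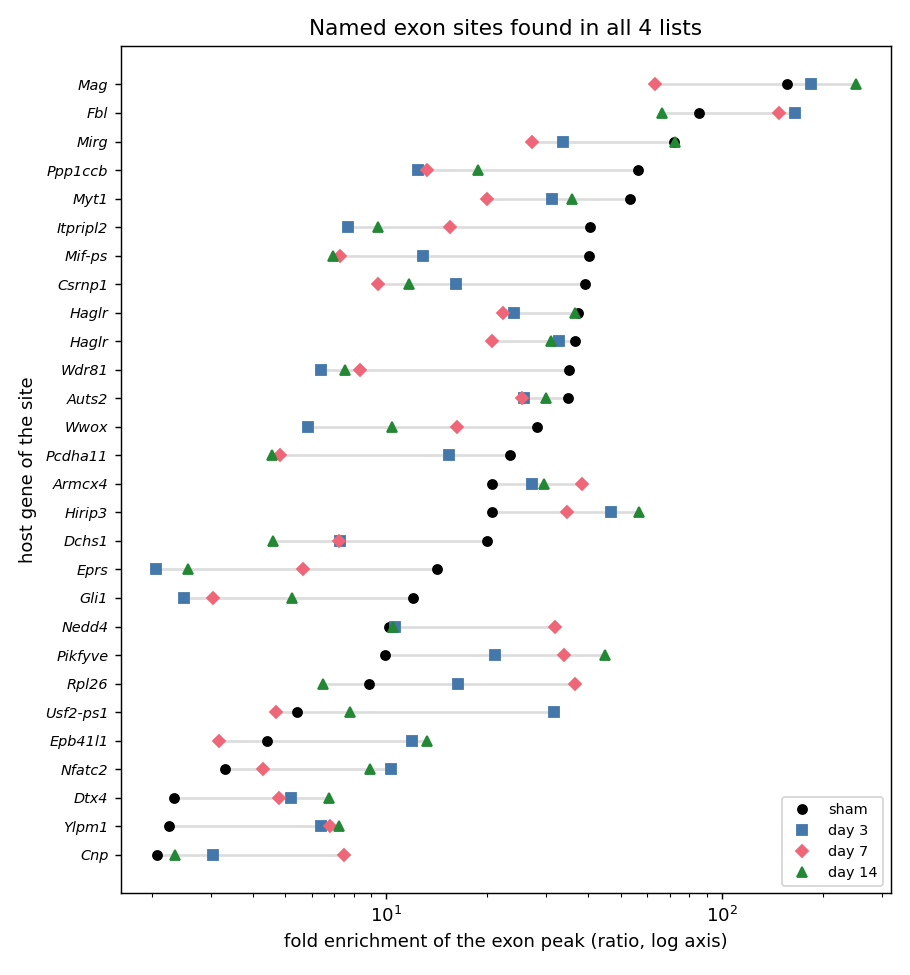
Fold enrichment (log axis) in the 4 lists at the named exon sites found in all of them, ordered by the sham value; grey lines span the 4 values of a site. Mag reaches 250 on day 14, Pikfyve and Ylpm1 have sham as the lowest of the 4 values, and Eprs, Wdr81 and Gli1 have it as the highest.

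The RNA of the host genes changed little by the test. The input libraries held the markers of spinal cord: Snap25 (neurons) ranged from 305 to 375 FPKM, Mbp (oligodendrocytes) from 1560 to 1970 and Gfap (astrocytes) from 295 to 394. Scn10a, of sensory ganglia, was at most 0.0141. Among genes of other tissues, Alb (liver) reached 85.4 and Scgb1a1 (lung) 118 FPKM in single libraries, and their part in the results was not tested. Sham library 3 and day 7 library 3 stood apart from the other 10, for example with Tubb3 at 141 and 154 FPKM against 305 to 336. The neuron markers did not share 1 direction. Snap25 was lower too, at 345 and 305 FPKM against 355 to 375, but Syt1 was higher, at 32.5 and 29.4 against 21.3 to 23.7. Rbfox3 was at 24.8 and 20.4 FPKM against 24.2 to 26.8.

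Of 4265 host genes tested with limma (Benjamini-Hochberg adjusted p under 0.05), 0 were called on day 3, 2 on day 7 and 1 on day 14, where 0.0578, 0.103 and 0.0514% of all 15564 genes were called. At an unadjusted p under 0.05 there were 197, 100 and 199 host genes. Without the libraries that stood apart, 262, 29 and 167 of 4261 host genes were called (6.15, 0.681 and 3.92%), where 7.1, 1.11 and 4.72% of all genes were. Of those host genes, 168, 18 and 97 were lower than in sham, beside 478 of 1104, 59 of 173 and 357 of 733 called genes overall. In neither fit was the share of host genes above that of all genes. With the replicate number as a block, 0, 1 and 1 host genes were called.

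Tubb6, a beta-tubulin, was at 1.06, 0.787 and 0.646 FPKM in the sham libraries, 2.51, 2.54 and 2.17 on day 3, 3.77, 3.71 and 2.08 on day 7, and 2.99, 3.53 and 3.06 on day 14. Every injured library was above every sham library. The log2 change was 1.44 ± 0.19 (SE, limma, adjusted p = 0.0205) on day 7 and 1.48 ± 0.19 (adjusted p = 0.0248) on day 14, and on day 3 it was 1.13 ± 0.19 (adjusted p = 0.091). Its last exon had an exon peak on day 7 (3.32) and day 14 (4.03), and none in the sham or day 3 list. A UTR peak of Tubb6 also passed in some list, so the exon peaks alone do not show whether the mark differed. Cd180, a Toll-like receptor homologue of immune cells, was at 0.512, 0.359 and 0.425 FPKM in sham and 0.883, 0.993 and 1.08 on day 7, without overlap. Its log2 change of 0.67 ± 0.1 (SE, limma, adjusted p = 0.0436) did not pass with the replicate block (adjusted p = 0.194). Its only exon peak was in sham, at 5.79, and a UTR peak of Cd180 also passed in some list.

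**Figure D5:**
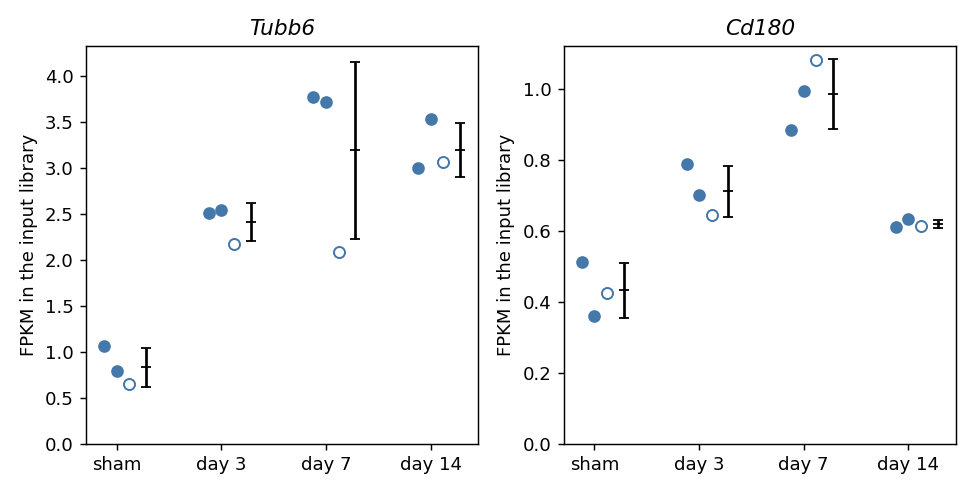
FPKM of Tubb6 and Cd180 in each input library (open circles, library 3 of each group) with the mean and SD of 3 libraries. Tubb6 lies between 0.646 and 1.06 in sham and above 2 in all injured libraries, and Cd180 is highest on day 7.

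The RNA of genes that had an exon peak with no sham row was compared by medians only, without a test. Their median log2 change was -0.039 on day 3 (506 genes), -0.016 on day 7 (435) and -0.013 on day 14 (460), beside 0.028, 0.006 and 0.031 over all tested genes. Without the libraries that stood apart, the medians were -0.013, -0.007 and 0.003, beside 0.017, 0.005 and 0.022. The median of these genes was below that of all genes on each day in both fits. This was not particular to them. With all libraries, the host genes of any exon peak had medians of -0.023, -0.011 and -0.004 on days 3, 7 and 14. Genes with a sham exon peak and no row on that day had medians of -0.061, 0.011 and -0.004.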

How the data were processed

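The deposited peak lists, 1 per group, give positions, blocks, a fold enrichment (ratio) and scores that are base 10 logarithms of p and of the false discovery rate, per the file headers. The deposited gene table gives FPKM for 32884 genes in the 12 input libraries, per the file headers. Per the submitters' processing notes, HISAT2, ChIPseeker, StringTie and edgeR were used. For the peak caller, for the build and for any pooling of replicates, nothing is stated: not given in the sources used here. Read depth is unknown, so precision rests on the spread between libraries, and nothing says that these came from separate animals, so p-values measure only that spread.

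Starts in the lists count from 0 and are printed from 1. The host gene is the gene on whose exons a peak was called, and its strand came from the gene table. Overlaps used bedtools 2.31.1. RNA was tested with limma 3.58.1 in R 4.3.3 on log2(FPKM + 0.5), genes with a mean of at least 0.5 FPKM, 4 group means in 1 fit, so a fold change understates that of low genes. Steps were tested on simulated data. Same-numbered sham and day 7 libraries deviated together from their group means (correlations of 0.459, 0.534 and 0.793), those of day 3 and day 14 did not. Library 3 stood apart in both sham and day 7 and moves both means, so these values do not show pairing by number.

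Members, gene lists and naming rules were chosen with earlier results of these data known. Named were the 5 strongest peaks per list, the 10 sites with the highest lowest fold, the 10 genes with most sites, the 5 largest differences each way and the 5 strongest list-specific peaks per day, in genes of at least 1 FPKM without predicted names, up to 6 members per gene list, and each host gene passing the RNA test. Those not described in the text are in the plot of named sites or were left out for length, and some items are not reported here. Alternatives are given in the closing section.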

Additional observations from a re-analysis of the deposited data

How the results depend on the processing

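With a fold of at least 3 and a logarithm of p of at most -10, exon peaks numbered 4163, 2691, 3317 and 2711 in sham and on days 3, 7 and 14, and with no threshold 11870, 12791, 12447 and 12080, where sham is no longer the largest list. Exon minus 3′ and 5′ UTR enrichment turned from -0.031 and -0.088 to 0.14 and 0.049 without thresholds. The share of sham exon peaks matched on days 3, 7 and 14 was 33.4, 38.7 and 34.7% without thresholds, 64.7, 70.9 and 64.8% at 1 base, 21.4, 29.0 and 22.9% at 80%, 43.0, 51.4 and 44.2% with partners of any class, and 43.3, 53.0 and 44.9% with equal numbers of strongest peaks. By exonic blocks, an alternative chosen after seeing the data, it was 43.0, 53.3 and 44.2%. With the stricter thresholds it was 37.1% on day 3 and 38.2% on day 14. Centred on the median of all peaks, the sites in all 4 lists differed by -0.053, -0.046 and 0.006.

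Host gene calls on day 7 were 1 with a pseudocount of 0.1, TPM, quantile scaling or the replicate block, and 0 without a filter, with a filter of 5 FPKM or for hosts with a peak in all 4 lists. On day 14 they were 0 with that filter or those hosts. Without a filter the count on day 14 stayed at 1, but Tubb6 did not pass (adjusted p = 0.0563, limma), nor on day 7 (0.0598). Without day 7 library 3 and sham library 3 they were 262, 29 and 167. Leaving out 1 library gave 0 to 3 calls on day 3, 0 to 2 on day 7 and 0 to 3 on day 14. Tubb6 did not pass on day 7 without day 7 library 1 or 2 or sham library 2 or 3 (adjusted p 0.0525 to 0.123), nor on day 14 without any 1 of the day 14 libraries or sham library 2 or 3 (0.0525 to 0.177). Cd180 did not pass without any 1 of the sham and day 7 libraries (0.0742 to 0.223). The cause of these losses was not tested. The block changed no call on days 3 and 14. With 1 list per group, no error can be given for any difference between peak lists.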

Other observations

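Strong exon peaks were unevenly spread over chromosomes, a pattern chosen after the values were seen and given without a test. Chromosome 7 held 12 of the 71 sham exon peaks with a fold enrichment of at least 50 (16.9%), 9 of 34 on day 3 (26.5%), 5 of 25 on day 7 (20%) and 11 of 40 on day 14 (27.5%). It held 8.33, 7.97, 8.1 and 7.93% of all exon peaks. Mag, Fbl, Zfp865 and Gm26810 are among its strong hosts, and the same genes recur between lists, so the 4 values are not independent.

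Zinc finger genes, many of which encode their fingers in 1 long last exon, had exon peaks in 209 of 349 tested members (59.9%), 89 of them in all 4 lists. Zfp976 was at 80.3, 110, 52.6 and 39.6 in sham and on days 3, 7 and 14, and Zfp651 was steady at 19.0, 17.9, 17.4 and 20.8. The strongest exon peak of Zfp865 was at 94.2 in sham and 2.7, 21.0 and 3.52 on the injured days, but the gene had 3, 1, 2 and 1 exon peaks and no 1 site in all 4 lists, so these are not values of 1 peak. Reads of this family can be shared between similar copies.

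Fold enrichment of exon peaks was weakly and inversely related to the RNA level of the host, with a Spearman rho of -0.208, -0.277, -0.235 and -0.256 in the 4 lists over 4931, 3730, 4388 and 3656 peaks. The input signal enters both measures.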
